A study of Rattus norvegicus with 9 samples.

Results

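Guidance genes are the semaphorins and their plexin receptors, the ephrins and their Eph receptors, the Slits and their Robo receptors, and the netrins and netrin-Gs with the Unc5 receptors. They were taken by gene symbol from a table of 19919 genes, and 62 matched: 20 semaphorins, 8 plexins, 8 ephrins, 12 Eph receptors, 3 Slits, 3 Robo receptors, 3 netrins, 2 netrin-Gs and 3 Unc5 receptors. The cells were cardiosphere-derived cells (CDCs), wild-type heart cells that gather into spheres called cardiospheres, isolated from 4-week-old Sprague Dawley rats, whose sex the sources give as male in one place and female in another. They were cultured for 3 days on the OPC substrate, which the labels call hydroxypropyl cellulose ester and the study's methods describe as a liquid crystal, on the ultralow attachment (ULA) substrate, which keeps cells from attaching, or on the polystyrene (PS) substrate of ordinary culture plastic. RNA-Seq gave 9 libraries, 3 biological replicates in each of the OPC, ULA and PS groups, all from unmodified cells with no added agent. The study's reporting form speaks of independent in vitro experiments without naming these libraries, so whether the replicates of a group came from separate animals or cultures is not settled by the sources. The p-values measure only how these libraries spread, which may be partly technical. Nor do the sources say whether cells attached to the substrate were kept with the spheres for RNA extraction.

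Guidance genes were first known for steering growing axons, and the same ligands and receptors act in many other tissues, the heart and its vessels included. Semaphorins bind plexins, and the secreted class 3 semaphorins usually need a neuropilin as co-receptor. Ephrins are tethered to the cell surface, the A type by a lipid anchor and the B type by a transmembrane segment, so that they meet Eph receptor tyrosine kinases only where cells touch, and both partners can signal. Secreted Slits bind Robo receptors with the help of heparan sulfate, and netrins bind the receptors Dcc, neogenin and Unc5. Many of these pairs change how cells hold on to each other and to matrix through the actin skeleton.

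The deposited values were taken to be FPKM, that is, fragment counts corrected for the length of the gene and the size of the library, so levels of different genes can be set side by side. The 9 libraries summed to 444736 to 460732 FPKM, and the steps between low values put their depth at 0.868 to 1.17 times that of PS replicate 1. How many reads this stands for is unknown, so counting error has no interval here, and a listed 0 is not proof of absence. Of the 62 guidance genes, 43 (69.4%) reached 1 FPKM in at least 3 libraries and were tested, against 12513 of all 19919 genes (62.8%). The other 19 stayed under 1 FPKM in all 9 libraries. The 7 mesenchymal markers that were checked against the cell label (Thy1, Eng, Vim, Col1a1, Col1a2, Pdgfra and Pdgfrb) all passed this filter and summed to 5275 to 5471 FPKM in OPC, 5405 to 5948 FPKM in ULA and 8793 to 9237 FPKM in PS libraries. Col1a1 made up most of each sum, and the markers did not move as 1. Thy1, Vim, Col1a1 and Col1a2 had lower means in OPC and ULA than in PS (Thy1 29.3, 20.9 and 137 FPKM in OPC, ULA and PS). Eng, Pdgfra and Pdgfrb had higher ones (Pdgfra 68.9, 68.5 and 16.7 FPKM). None of the 4 endothelial markers measured passed, and they summed to at most 0.683 FPKM in any library, with Kdr and Tie1 at or near 0. The endothelial markers Pecam1, Cdh5 and Cldn5 are not in the table and could not be checked. The same holds for Sox10, Itgam and Myl2 of the Schwann, myeloid and cardiomyocyte lists. Schwann and neuronal markers (3 of 5 passed) summed to 19.9 to 21.8 FPKM in OPC, 24.8 to 26.7 FPKM in ULA and 10.4 to 11.9 FPKM in PS libraries, mostly S100b in OPC and ULA, while Elavl4 and Ngfr were at most 0.0471 FPKM. Of 5 myeloid and lymphoid markers only Cd68 passed, and the list summed to 21.9 to 26.2 FPKM in OPC, 40.2 to 40.4 FPKM in ULA and 3.10 to 3.74 FPKM in PS libraries, with Ptprc and Cd3e at or near 0. Cardiomyocyte markers (1 of 4 passed, Actn2) summed to at most 0.508 FPKM in OPC, 0.923 FPKM in ULA and 3.30 FPKM in PS libraries, and epicardial markers (2 of 4 passed, Msln and Wt1) lay at 4.15 to 5.33, 5.22 to 6.11 and 3.52 to 5.31 FPKM in the same order of groups. The part of these shifts in the results was not tested, and in bulk RNA fewer cells of a type and less RNA per cell cannot be told apart.

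Of the 43 tested guidance genes, 41 passed the test in at least 1 comparison and 23 in all 3. The share of all tested genes that did so was not counted, so these counts do not set the guidance genes apart. Differences were tested with limma on log2(FPKM + 1) with Benjamini-Hochberg adjustment over the 12513 genes, and a gene is called higher or lower where the adjusted p did not exceed 0.05. DEGs (differentially expressed genes) also had a |log2FC| of at least 1. In OPC vs ULA, 27 of 43 guidance genes were higher in the OPC group, against 32.2% of all tested genes, and 5 were lower, against 21.7%. After upper-quartile rescaling of the libraries the same comparison gave 26 higher and 6 lower, against 25.6% and 26.7% of all tested genes. In ULA vs PS, 19 were higher in the ULA group (38.4% of all tested genes) and 15 lower (30.5%). In OPC vs PS, 24 were higher in the OPC group (40.4% of all tested genes) and 13 lower (23.9%). The DEGs among them were 4 higher (1.81% of all tested genes) and 1 lower (2.52%) in OPC vs ULA, 7 higher (8.42%) and 6 lower (7.39%) in ULA vs PS, and 12 higher (6.6%) and 2 lower (6.11%) in OPC vs PS. The median log2FC of the 43 was 0.35 in OPC vs ULA, 0.07 in ULA vs PS and 0.32 in OPC vs PS, beside 0.06, 0.06 and 0.11 over all tested genes in the same order. Sema3e, Sema5a and Unc5c reached 1 FPKM in the libraries of 1 group only, so the filter let them in where they had to differ. Among the other 40 genes 27 were higher and 4 lower in OPC vs ULA, 18 and 13 in ULA vs PS, and 23 and 11 in OPC vs PS. Still counted among these 40 are Efna2, Efna3, Sema6c and Sema6d, which reached 1 FPKM in no PS library. The filter fixed their direction against PS, where all were counted as higher. Of the DEGs in ULA vs PS, the filter likewise fixed the direction of Efna3, Sema5a, Sema6c and Sema6d (higher) and of Sema3e (lower). In OPC vs PS it fixed that of Sema6d (higher). The DEG counts above include these genes, so they cannot be read as an excess over the shares of all tested genes. Each pair of comparisons shares the libraries of 1 group, so the 3 sets of counts are not independent.

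The 43 genes fell into a few orders of the 3 substrates. OPC was above both ULA and PS, by the test in each, for 16 genes (16.3% of all tested genes had this order): Slit2, Robo1, Robo2, Ntn1, Ntng2, Efna5, Efnb1, Epha3, Ephb4, Ephb6, Plxna2, Plxna4, Plxnd1, Sema4b, Sema6a and Sema6d. PS was above OPC and OPC above ULA for 7 genes (8.05% of all tested genes): Sema3c, Sema3f, Plxna1, Efnb2, Epha2, Ephb3 and Unc5b. ULA was above OPC and OPC above PS for 3 genes (8.62%): Efna1, Efna3 and Sema5a. OPC was below both for Slit3 and Plxna3 (6.15% of all tested genes), and the other 15 genes had at least 1 step that missed the threshold. The steps of Efna3 and Sema6d from PS, and those of Sema5a from ULA, were fixed by the filter, as above. Some of the other memberships rest on single libraries or on 1 setting. The adjusted p of Sema6a in OPC vs ULA (0.0424, limma) was 0.0523 to 0.133 without OPC replicate 1 or 2, any 1 ULA replicate or PS replicate 2, and 0.0816 with 0.1 added in place of 1, 0.0719 with no filter and 0.118 after upper-quartile rescaling. That of Plxna3 in OPC vs ULA (0.0245) was 0.0523 to 0.0849 without OPC replicate 1 or 3 or ULA replicate 2 or 3. That of Slit3 in OPC vs ULA (0.0441) was 0.0578 to 0.149 without OPC replicate 1 or 2, ULA replicate 2 or 3 or any 1 PS replicate, and 0.0742 with no filter, 0.064 without a trend and 0.0824 in a fit of those 2 groups alone. Likewise Sema3f was below PS in OPC at an adjusted p of 0.0321, which was 0.0568 to 0.1 without OPC replicate 1 or 2 or any 1 PS replicate.

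**Figure D1:**
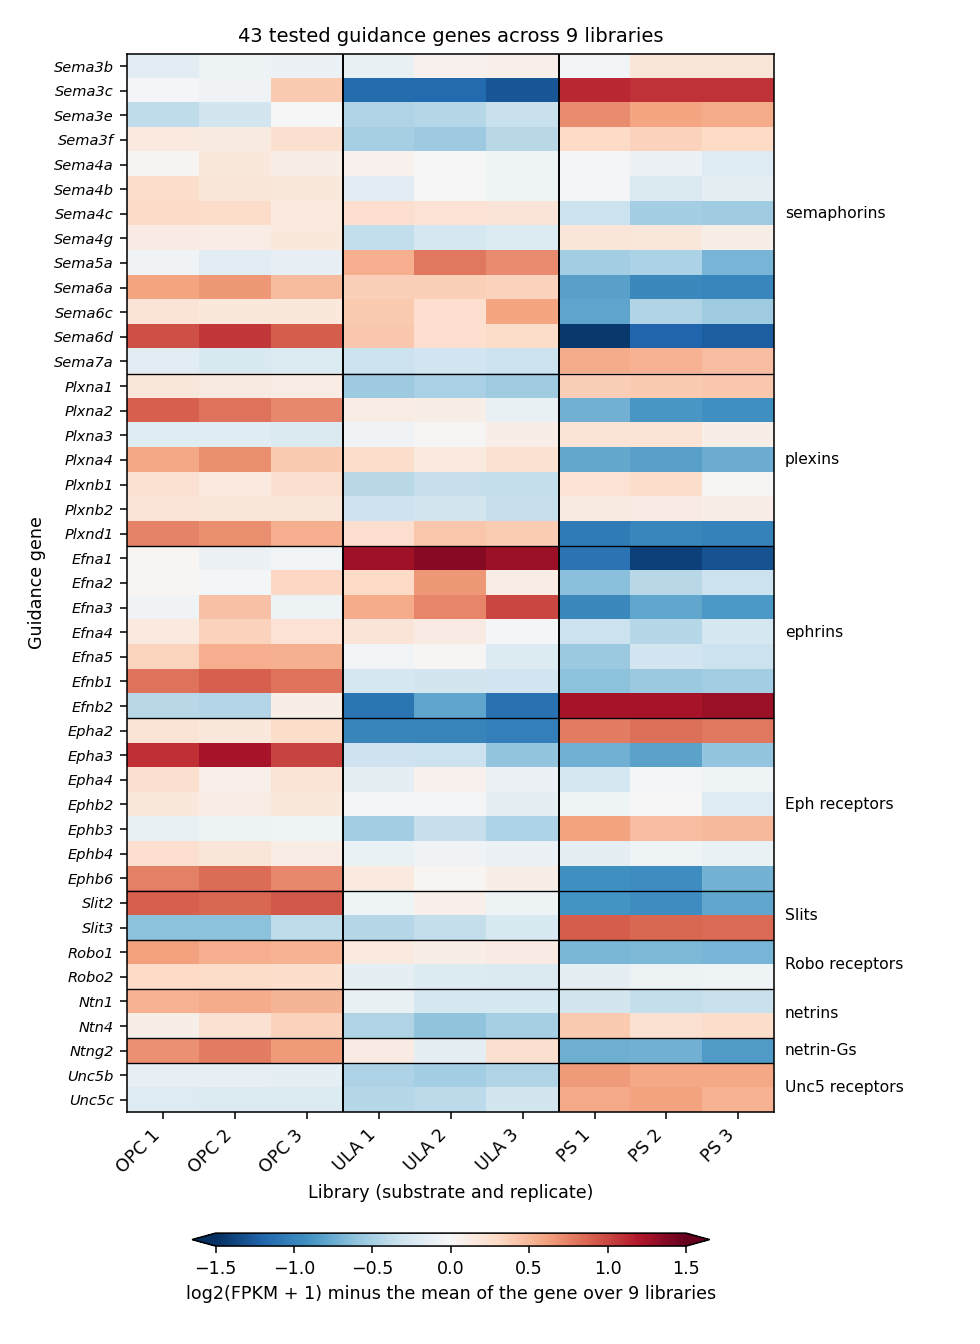
Levels of the 43 tested guidance genes in each library, as log2(FPKM + 1) minus the mean of the gene over 9 libraries (red above, blue below). Rows are genes by family and columns are OPC, ULA and PS replicates. Efna1 stands out as high in the 3 ULA libraries, Efnb2 and Sema3c as high in the 3 PS libraries, and Slit2, Efnb1 and Epha3 as high in the 3 OPC libraries.

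Among the ephrins, the A-type genes Efna1 and Efna3 were highest in the ULA group, while Efnb1 was highest in the OPC group and Efnb2 in the PS group. Of the 7 tested ephrins, 3 were higher (32.2% of all tested genes) and 2 lower (21.7%) in OPC vs ULA. In ULA vs PS 6 were higher (38.4%) and 1 lower (30.5%), and in OPC vs PS 6 higher (40.4%) and 1 lower (23.9%). The lone fall against PS was Efnb2. Among the rises, Efna2 and Efna3 reached 1 FPKM in no PS library and passed through the OPC and ULA libraries, so the filter fixed their direction against PS. The 8 ephrins together summed to 79.3 to 86.6 FPKM in OPC, 65.9 to 71.6 FPKM in ULA and 46.1 to 49.8 FPKM in PS libraries, 3 ranges that do not overlap.

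Efna1 encodes ephrin-A1, a lipid-anchored ligand of EphA2 first found as a gene that the cytokine TNF induces. It had 8.23, 7.5 and 7.76 FPKM in OPC, 20.8, 22.2 and 21 FPKM in ULA and 3.20, 2.42 and 2.64 FPKM in PS libraries. The 3 groups are fully apart, with ULA at the top and PS at the bottom. Its log2FC was -1.34 ± 0.08 (SE) in OPC vs ULA (adjusted p = 1.07e-06, limma), 2.58 ± 0.08 in ULA vs PS (3.12e-09) and 1.24 ± 0.08 in OPC vs PS (6.07e-07). The value in ULA vs PS is the largest log2FC of any guidance gene in the 3 comparisons on this scale, and Efna1 was the only guidance gene that was a DEG lower in OPC vs ULA.

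Efna3, another A-type ephrin, had 1.61, 2.69 and 1.57 FPKM in OPC, 3.01, 3.53 and 4.44 FPKM in ULA and 0.395, 0.589 and 0.490 FPKM in PS libraries. It kept the order of Efna1 at a lower level, again with no overlap between groups. As above, its direction against PS was fixed by the filter. Its log2FC was -0.66 ± 0.16 in OPC vs ULA (adjusted p = 0.00743, limma), 1.63 ± 0.16 in ULA vs PS (1.44e-05) and 0.97 ± 0.16 in OPC vs PS (0.000608). Because log2(FPKM + 1) understates the change of genes near 1 FPKM, the ULA vs PS value became 2.66 and the OPC vs PS value 1.77 with 0.1 added in place of 1. Efna4, the A-type ephrin next to them on the chromosome, averaged 7.75 ± 0.59 FPKM in OPC, 6.96 ± 0.59 FPKM in ULA and 4.89 ± 0.33 FPKM in PS libraries (SD, n = 3 each), so that it was higher in both other groups than in PS (log2FC 0.57 ± 0.08 in OPC vs PS and 0.43 ± 0.08 in ULA vs PS) and missed the threshold in OPC vs ULA (0.14 ± 0.08, adjusted p = 0.171).

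Efna1, Efna3 and Efna4 lie side by side on chromosome 2, between 188588796 and 188660179 of the rn6 genome the values were made with, a stretch of 71.4 kb in which all 3 are read from the minus strand. Their promoter windows run from 250 bases before to 50 bases after the RefSeq start in the GRCr8 assembly. They are shown because all 3 were higher in OPC and ULA than in PS, a direction that the filter fixed for Efna3. In OPC vs ULA Efna1 and Efna3 were lower, while Efna4 missed the threshold. Capitals mark GCGTG, 1 of 2 forms (with ACGTG) of the core that hypoxia-inducible factors bind, on either strand, so that CACGC is the same core on the other strand.

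Efna1, chr2:176986772-176987071, minus strand: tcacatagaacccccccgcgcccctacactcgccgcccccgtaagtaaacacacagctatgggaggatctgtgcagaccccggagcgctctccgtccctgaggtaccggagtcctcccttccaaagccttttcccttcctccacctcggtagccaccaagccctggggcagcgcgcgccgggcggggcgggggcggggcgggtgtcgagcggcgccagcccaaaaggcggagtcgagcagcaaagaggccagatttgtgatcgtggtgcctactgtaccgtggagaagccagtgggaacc
Efna3, chr2:177035789-177036088, minus strand: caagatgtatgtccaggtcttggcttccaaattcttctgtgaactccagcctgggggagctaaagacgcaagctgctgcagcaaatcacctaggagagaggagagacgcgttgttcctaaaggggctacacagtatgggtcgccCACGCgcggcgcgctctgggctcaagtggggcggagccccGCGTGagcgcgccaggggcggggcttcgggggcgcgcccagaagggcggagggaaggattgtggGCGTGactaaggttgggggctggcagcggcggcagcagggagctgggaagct
Efna4, chr2:177050664-177050963, minus strand: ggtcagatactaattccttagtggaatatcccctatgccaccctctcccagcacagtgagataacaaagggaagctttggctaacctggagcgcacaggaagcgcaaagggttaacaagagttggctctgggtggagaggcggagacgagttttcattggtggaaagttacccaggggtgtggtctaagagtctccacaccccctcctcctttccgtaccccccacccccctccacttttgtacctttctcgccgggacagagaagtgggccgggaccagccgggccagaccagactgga

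The Efna3 window holds the marked core 3 times, at 106, 66 and 2 bases before the start, the first of them on the other strand, and does not hold the other form. Neither form is in the Efna1 or Efna4 window. A match is a description of letters and not a site of binding, and an empty window says only that the letters are not in these 300 bases. Of 27457 rat promoter windows of this length, 31.1% hold the marked form and 19.7% the other form. Of the 48 guidance genes with a window, 19 (39.6%) hold the marked form and 10 (20.8%) the other. GGAATG, the core bound by TEAD factors and sought on both strands, is in 5 of the 48 (10.4%) and in 13.9% of all windows.

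Efna5, the most abundant A-type ephrin in the OPC and PS groups, averaged 23.7 ± 2.0 FPKM in OPC, 15.9 ± 1.3 FPKM in ULA and 12.6 ± 1.3 FPKM in PS libraries (SD, n = 3 each), and was higher in OPC than in ULA by a log2FC of 0.55 ± 0.09 (adjusted p = 0.000735, limma). The balance of both A-type genes followed: the ratio of Efna1 to Efna5 in FPKM was 0.3 to 0.384 in OPC, 1.28 to 1.46 in ULA and 0.179 to 0.289 in PS libraries. Efna1 exceeded Efna5 in the ULA libraries and in no other library. Efna2 was lower than these, at 1.20 to 1.78 FPKM in OPC, 1.43 to 2.53 FPKM in ULA and 0.463 to 0.804 FPKM in PS libraries. Its higher level in OPC than in PS (0.55 ± 0.16, adjusted p = 0.0141) had an adjusted p of 0.0524 without OPC replicate 3 and 0.0518 without PS replicate 1. The direction of this difference was fixed by the filter, as above.

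Efnb1 encodes ephrin-B1, a transmembrane ligand of EphB receptors that cardiomyocytes and mesenchymal cells are known to carry. It had 36.0, 38.3 and 36.2 FPKM in OPC, 16.7, 16.4 and 16.3 FPKM in ULA and 12.7, 13.3 and 13.7 FPKM in PS libraries. Every OPC library was more than 2 times every other library. Its log2FC was 1.11 ± 0.04 in OPC vs ULA (adjusted p = 8.41e-08, limma), 0.29 ± 0.04 in ULA vs PS (0.000168) and 1.41 ± 0.04 in OPC vs PS (4.46e-09).

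Efnb2 encodes ephrin-B2, the ligand known as a mark of arterial endothelium and a partner of EphB4. It had 3.54, 3.45 and 5.44 FPKM in OPC, 1.84, 2.52 and 1.79 FPKM in ULA and 13.3, 13.3 and 13.8 FPKM in PS libraries. OPC replicate 3 lay above the other OPC libraries, but the groups did not overlap and the PS libraries were far above the rest. Its log2FC was 0.74 ± 0.14 in OPC vs ULA (adjusted p = 0.002, limma), -2.26 ± 0.14 in ULA vs PS (5.41e-07) and -1.51 ± 0.14 in OPC vs PS (1.16e-05). Efnb1 and Efnb2 were about level in PS libraries, with a ratio of 0.957 to 1.00 in FPKM, and the ratio was 6.65 to 11.1 in OPC and 6.51 to 9.10 in ULA libraries.

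**Figure D2:**
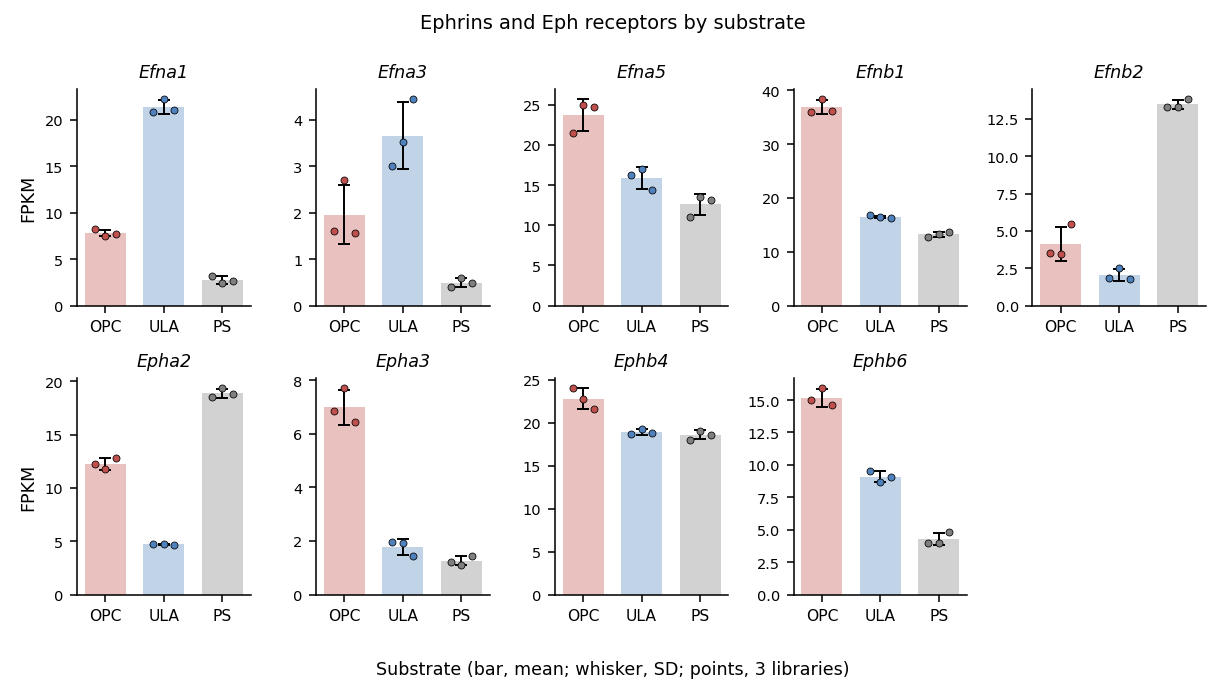
FPKM of 5 ephrins (Efna1, Efna3, Efna5, Efnb1, Efnb2) and 4 Eph receptors (Epha2, Epha3, Ephb4, Ephb6) by substrate. Bars are means, whiskers SD and points the 3 libraries of each group. Efna1 peaks in ULA, Efnb2 and Epha2 in PS, and Efnb1, Epha3 and Ephb6 in OPC.

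Among the Eph receptors, Epha3 and Ephb6 followed Efnb1 in being highest in OPC, while Epha2 and Ephb3 were highest in PS and lowest in ULA. Of the 7 tested receptors, 5 were higher (32.2% of all tested genes) and 0 lower (21.7%) in OPC vs ULA. At an unadjusted p of 0.05 (limma) 0 of 7 were lower there too. In ULA vs PS 2 were higher (38.4%) and 2 lower (30.5%), and in OPC vs PS 3 higher (40.4%) and 2 lower (23.9%). The 12 receptors summed to 61.8 to 64.4 FPKM in OPC, 38.2 to 39.5 FPKM in ULA and 49.97 to 51.5 FPKM in PS libraries.

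Epha2, the main receptor of ephrin-A1, had 12.2, 11.8 and 12.8 FPKM in OPC, 4.77, 4.73 and 4.64 FPKM in ULA and 18.5, 19.4 and 18.8 FPKM in PS libraries. Its groups were fully apart in the reverse order to Efna1, with ULA lowest and PS highest. Its log2FC was 1.21 ± 0.05 in OPC vs ULA (adjusted p = 9.79e-08, limma), -1.80 ± 0.05 in ULA vs PS (1.33e-09) and -0.58 ± 0.05 in OPC vs PS (3.52e-06).

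Epha3, a receptor of A-type ephrins that forming heart valves need in the mouse, had 6.85, 7.70 and 6.42 FPKM in OPC, 1.96, 1.94 and 1.44 FPKM in ULA and 1.23, 1.10 and 1.44 FPKM in PS libraries. OPC stood alone, and ULA replicate 3 lay level with PS replicate 3. Its log2FC was 1.52 ± 0.11 in OPC vs ULA (adjusted p = 3.64e-06, limma), the largest rise of a guidance gene in that comparison, and 1.82 ± 0.11 in OPC vs PS (3.82e-07). In ULA vs PS it was 0.30 ± 0.11 (adjusted p = 0.0321), which missed the threshold without ULA replicate 1 or 2 or PS replicate 1 or 2 (0.0725 to 0.102), with no filter (0.0582) and in a fit of those 2 groups alone (0.0604). The ratio of Epha2 to Epha3 was 1.53 to 2.0 in OPC, 2.43 to 3.22 in ULA and 13.1 to 17.6 in PS libraries. A non-coding RNA gene listed as RF00015, with a mean of 0.212 FPKM, overlaps Epha3 on the same strand.

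Ephb4, the main receptor of ephrin-B2 and the most abundant Eph receptor on average, had 24.0, 22.8 and 21.7 FPKM in OPC, 18.7, 19.3 and 18.8 FPKM in ULA and 18.1, 19.1 and 18.6 FPKM in PS libraries. All OPC libraries were above the rest by a small step, and ULA and PS overlapped. Its log2FC was 0.26 ± 0.05 in OPC vs ULA (adjusted p = 0.00115, limma) and 0.28 ± 0.05 in OPC vs PS (0.000442). Ephb6, a member of the family that lacks kinase activity, had 15.0, 15.9 and 14.6 FPKM in OPC, 9.52, 8.71 and 9.06 FPKM in ULA and 4.01, 3.96 and 4.79 FPKM in PS libraries. OPC was highest and PS lowest, with no overlap. Its log2FC was 0.68 ± 0.07 in OPC vs ULA (adjusted p = 4.4e-05), 0.95 ± 0.07 in ULA vs PS (1.78e-06) and 1.63 ± 0.07 in OPC vs PS (5.15e-08).

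The remaining tested receptors were low. Ephb3 averaged 2.96 ± 0.06 FPKM in OPC, 2.1 ± 0.19 FPKM in ULA and 5.03 ± 0.32 FPKM in PS libraries (SD, n = 3 each), the order of Epha2, with a log2FC of 0.35 ± 0.08 in OPC vs ULA, -0.96 ± 0.08 in ULA vs PS and -0.60 ± 0.08 in OPC vs PS. Epha4 and Ephb2 were the 2 tested guidance genes that passed in no comparison. Epha4 averaged 1.25 ± 0.13 FPKM in OPC, 0.933 ± 0.138 FPKM in ULA and 0.848 ± 0.160 FPKM in PS libraries, with a smallest adjusted p of 0.0503 (OPC vs PS, limma). Ephb2 averaged 1.39 ± 0.04 FPKM in OPC, 1.07 ± 0.09 FPKM in ULA and 1.05 ± 0.14 FPKM in PS libraries, with a smallest adjusted p of 0.0699 (OPC vs PS).

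Among the semaphorins, Sema6a, of class 6, whose members span the membrane, was higher on OPC and ULA than on PS. Sema3c, of the secreted class 3, was lower. Of the 3 tested class 6 genes, Sema6c and Sema6d reached 1 FPKM in no PS library. The filter thus fixed their direction against PS, and they are left out of the count. The log2FC of Sema6a was 1.49 ± 0.08 in OPC vs PS and 1.27 ± 0.08 in ULA vs PS. Of the 4 tested class 3 genes, Sema3e entered through the PS libraries alone, so its lower level against PS is left out of the count. Of the other 3, 0 were higher and 3 lower in OPC vs PS, 2 of these (Sema3b and Sema3f) only with certain libraries in the fit, and 0 were higher and 2 lower in ULA vs PS. The 3 class 3 genes that stayed under 1 FPKM are not in these counts, and Sema3a among them averaged 0.515 FPKM in OPC, 0.336 FPKM in ULA and 0.319 FPKM in PS libraries, with OPC and PS overlapping. In OPC vs ULA, 2 genes of each class were higher and 0 lower. With limma at an unadjusted p of 0.05 the counts of 0 stayed at 0. Over all 13 tested semaphorins, 6 were higher and 1 lower in OPC vs ULA, 5 higher and 5 lower in ULA vs PS, and 7 higher and 5 lower in OPC vs PS. Against PS these totals include Sema3e, Sema6c and Sema6d, whose direction the filter fixed. Sema5a passed only through the ULA libraries, so its direction against ULA in the first 2 comparisons was fixed too. Of all tested genes, 32.2% were higher and 21.7% lower in OPC vs ULA, 38.4% and 30.5% in ULA vs PS, and 40.4% and 23.9% in OPC vs PS.

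Sema3c, a secreted semaphorin that the outflow tract of the heart needs to divide, was the most abundant semaphorin on average, with 32.5, 31.8 and 43.6 FPKM in OPC, 14.3, 14.1 and 13 FPKM in ULA and 73.4, 71.5 and 71.3 FPKM in PS libraries. OPC replicate 3 was above the other OPC libraries, and the groups did not overlap. Its log2FC was 1.31 ± 0.10 in OPC vs ULA (adjusted p = 7.06e-06, limma), -2.30 ± 0.10 in ULA vs PS (3.97e-08) and -0.997 ± 0.103 in OPC vs PS (1.99e-05). The last lies just inside the fold threshold, so that Sema3c was not a DEG there.

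Sema3e, the secreted ligand that binds plexin-D1 without a neuropilin, had 0.357, 0.454 and 0.762 FPKM in OPC, 0.291, 0.314 and 0.394 FPKM in ULA and 1.87, 1.65 and 1.6 FPKM in PS libraries. It reached 1 FPKM only in PS libraries, which is how it passed the filter, and OPC and ULA overlapped. Its log2FC was 0.18 ± 0.13 in OPC vs ULA (adjusted p = 0.25, limma), -1.02 ± 0.13 in ULA vs PS (6.43e-05) and -0.84 ± 0.13 in OPC vs PS (0.000297), and the last 2 became -2.06 and -1.58 with 0.1 added in place of 1. Sema3f, which signals through neuropilin-2, averaged 18.6 ± 0.8 FPKM in OPC, 11.4 ± 0.6 FPKM in ULA and 20.6 ± 0.4 FPKM in PS libraries (SD, n = 3 each). It was higher in OPC than in ULA by 0.66 ± 0.05 and lower in ULA than in PS, with a log2FC of -0.80 ± 0.05. Gnat1, at a mean of 0.513 FPKM, overlaps Sema3f on the same strand. Sema3b, which neighbours Sema3f on chromosome 8, averaged 13.2 ± 0.5 FPKM in OPC, 14.5 ± 1.1 FPKM in ULA and 15.6 ± 1.5 FPKM in PS libraries. The Sema3b log2FC of -0.22 ± 0.08 in OPC vs PS (adjusted p = 0.0288) missed the threshold without OPC replicate 1 or 3 or PS replicate 2 or 3 (0.0502 to 0.0989).

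Sema6d, a transmembrane semaphorin that pairs with plexin-A1 in chick heart development, had 7.23, 7.73 and 6.89 FPKM in OPC, 4.58, 4.0 and 4.09 FPKM in ULA and 0.541, 0.836 and 0.788 FPKM in PS libraries. The groups were far apart, with all PS libraries under 1 FPKM. Sema6d passed the filter through the OPC and ULA libraries, so its direction against PS was fixed by the filter. Its log2FC of 2.27 ± 0.09 in OPC vs PS (adjusted p = 2.87e-08, limma) was the largest of a guidance gene in that comparison, beside 0.67 ± 0.09 in OPC vs ULA (0.000228) and 1.6 ± 0.09 in ULA vs PS (2.29e-07). With 0.1 added in place of 1 the values against PS became 3.19 in OPC and 2.41 in ULA.

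Sema6a, a ligand of plexin-A2 and plexin-A4, had 4.52, 4.72 and 4.08 FPKM in OPC, 3.67, 3.68 and 3.63 FPKM in ULA and 1.07, 0.876 and 0.850 FPKM in PS libraries. OPC and ULA were close and both far above PS. Its log2FC was 1.27 ± 0.08 in ULA vs PS (adjusted p = 5.2e-07, limma) and 1.49 ± 0.08 in OPC vs PS (2.1e-07), beside 0.22 ± 0.08 in OPC vs ULA. Sema6c had 1.49, 1.40 and 1.40 FPKM in OPC, 1.83, 1.57 and 2.25 FPKM in ULA and 0.248, 0.581 and 0.492 FPKM in PS libraries. It was lowest in PS, with a log2FC of 1.00 ± 0.13 in ULA vs PS (adjusted p = 7.79e-05) and 0.76 ± 0.13 in OPC vs PS (0.000589), which became 1.92 and 1.55 with 0.1 added in place of 1, so that it was then a DEG in both. As above, the filter fixed the direction of Sema6c against PS. In OPC vs ULA Sema6c missed the threshold (-0.24 ± 0.13, adjusted p = 0.14).

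Sema5a, a membrane semaphorin with thrombospondin repeats, had 0.756, 0.615 and 0.669 FPKM in OPC, 1.65, 2.16 and 1.99 FPKM in ULA and 0.266, 0.315 and 0.129 FPKM in PS libraries. It took the order of Efna1, and it passed the filter only through the ULA libraries. Its log2FC was -0.80 ± 0.12 in OPC vs ULA (adjusted p = 0.000358, limma), 1.25 ± 0.12 in ULA vs PS (9.04e-06) and 0.44 ± 0.12 in OPC vs PS (0.00817). With 0.1 added in place of 1 these became -1.38, 2.63 and 1.25.

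The class 4 semaphorins, membrane ligands of B plexins, moved less. Sema4c averaged 7.87 ± 0.47 FPKM in OPC, 7.75 ± 0.18 FPKM in ULA and 4.49 ± 0.43 FPKM in PS libraries (SD, n = 3 each) and was higher in both OPC (0.69 ± 0.07) and ULA (0.67 ± 0.07) than in PS. In OPC vs ULA its log2FC of 0.02 ± 0.07 missed the threshold, and it was -0.05 after upper-quartile rescaling. Sema4b averaged 6.01 ± 0.25 FPKM in OPC, 4.78 ± 0.34 FPKM in ULA and 4.61 ± 0.40 FPKM in PS libraries. Sema4g averaged 3.08 ± 0.07 FPKM in OPC, 2.06 ± 0.17 FPKM in ULA and 3.12 ± 0.15 FPKM in PS libraries, low in ULA alone. Sema4a, at 2.66 to 3.67 FPKM in all libraries, was higher in OPC vs PS (0.20 ± 0.08, adjusted p = 0.0433, limma), a call that missed the threshold without any 1 OPC replicate, ULA replicate 2 or 3 or PS replicate 2 or 3 (0.0505 to 0.143), with no filter (0.075), after upper-quartile rescaling (0.144) and in a fit of those 2 groups alone (0.0636). Sema7a, the lipid-anchored semaphorin, averaged 4.11 ± 0.11 FPKM in OPC, 3.73 ± 0.06 FPKM in ULA and 7.37 ± 0.26 FPKM in PS libraries, with a log2FC of -0.71 ± 0.06 in OPC vs PS and -0.82 ± 0.06 in ULA vs PS.

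**Figure D3:**
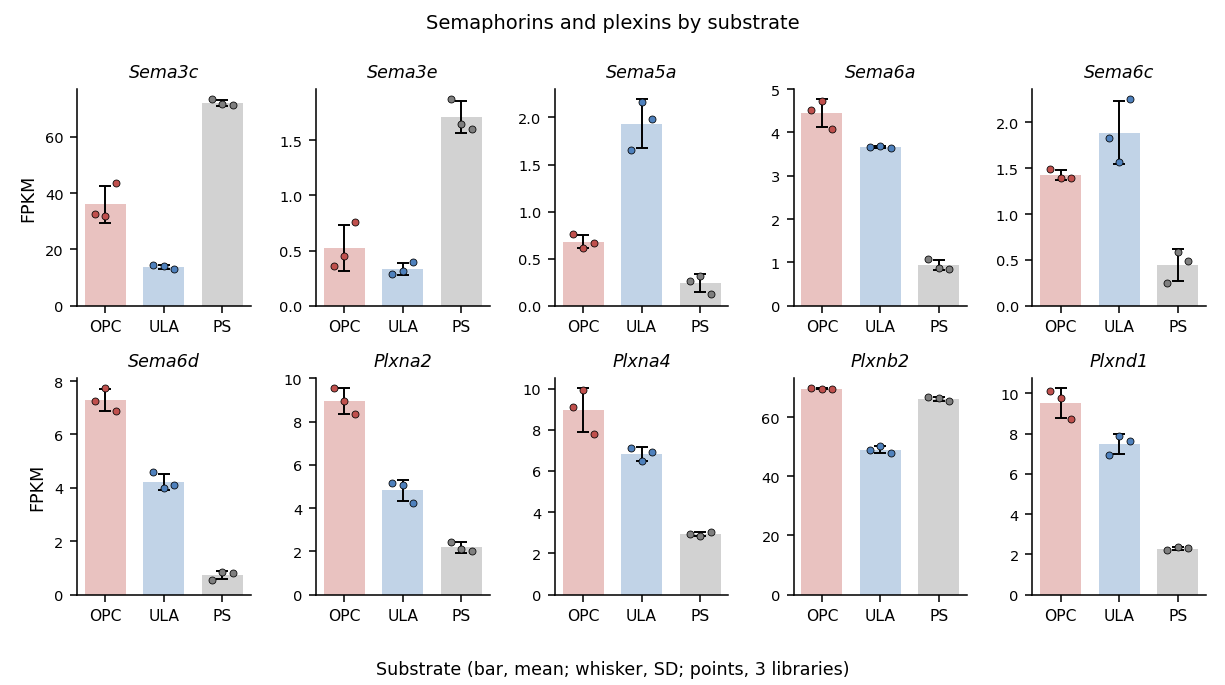
FPKM of 6 semaphorins (Sema3c, Sema3e, Sema5a, Sema6a, Sema6c, Sema6d) and 4 plexins (Plxna2, Plxna4, Plxnb2, Plxnd1) by substrate, with bars for means, whiskers for SD and points for the 3 libraries. Sema3c and Sema3e are highest in PS, Sema6a, Sema6d, Plxna2, Plxna4 and Plxnd1 are lowest in PS, and Sema5a is highest in ULA.

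The plexins, which carry the semaphorin signal across the membrane, were mostly higher in OPC than in ULA: 6 of 7 tested genes were higher, against 32.2% of all tested genes, and 1, Plxna3, lower, against 21.7%, a call lost, as above, without any 1 of 4 of the libraries. In ULA vs PS 3 were higher (Plxna2, Plxna4 and Plxnd1), against 38.4% of all tested genes, and 3 lower (Plxna1, Plxnb1 and Plxnb2), against 30.5%. In OPC vs PS Plxna2, Plxna4 and Plxnd1 were again higher, against 40.4%, and 2 lower (Plxna1 and Plxna3), against 23.9%. The 8 plexins summed to 127 to 132 FPKM in OPC, 89.4 to 92.6 FPKM in ULA and 112 to 113 FPKM in PS libraries.

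Plxnb2, a receptor of class 4 semaphorins and the most abundant plexin, had 69.9, 69.6 and 69.6 FPKM in OPC, 48.9, 50.4 and 48.0 FPKM in ULA and 66.9, 66.5 and 65.6 FPKM in PS libraries. It was low in ULA, and OPC and PS were close. Its log2FC was 0.50 ± 0.03 in OPC vs ULA (adjusted p = 1.13e-06, limma) and -0.43 ± 0.03 in ULA vs PS (8.46e-07). In OPC vs PS it was 0.07 ± 0.03 (adjusted p = 0.059), and -0.01 after upper-quartile rescaling.

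Plxnd1, the receptor of Sema3e that vessel patterning needs, had 10.1, 9.77 and 8.70 FPKM in OPC, 6.92, 7.85 and 7.63 FPKM in ULA and 2.19, 2.38 and 2.29 FPKM in PS libraries. Sema3e was highest in PS, but it entered the test through the PS libraries alone, so the orders of ligand and receptor cannot be set against each other. Plxnd1 was lowest in PS, with no overlap between groups. Its log2FC was 0.31 ± 0.07 in OPC vs ULA (adjusted p = 0.00511, limma), 1.36 ± 0.07 in ULA vs PS (1.38e-07) and 1.68 ± 0.07 in OPC vs PS (4.53e-08).

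Plxna2 had 9.55, 8.97 and 8.36 FPKM in OPC, 5.15, 5.05 and 4.24 FPKM in ULA and 2.45, 2.09 and 1.99 FPKM in PS libraries. Plxna4 had 9.10, 9.94 and 7.81 FPKM in OPC, 7.10, 6.48 and 6.90 FPKM in ULA and 2.95, 2.82 and 3.02 FPKM in PS libraries. These 2 receptors of Sema6a thus both were highest in OPC and lowest in PS, with no overlap. The log2FC of Plxna2 was 0.78 ± 0.09 in OPC vs ULA (adjusted p = 7.4e-05, limma), 0.87 ± 0.09 in ULA vs PS (1.57e-05) and 1.65 ± 0.09 in OPC vs PS (2e-07). That of Plxna4 was 0.34 ± 0.08 in OPC vs ULA (adjusted p = 0.00635), 0.99 ± 0.08 in ULA vs PS (3.43e-06) and 1.33 ± 0.08 in OPC vs PS (5.2e-07). The paralog Plxna1 went another way, at 25.9 ± 0.5 FPKM in OPC, 16.0 ± 0.4 FPKM in ULA and 30.9 ± 0.4 FPKM in PS libraries (mean ± SD, n = 3 each), so that Plxna1 was 2.77 to 3.04 times Plxna2 in OPC, 3.05 to 3.74 times in ULA and 12.5 to 15.7 times in PS libraries. Plxna3 averaged 3.38 ± 0.06 FPKM in OPC, 4.09 ± 0.27 FPKM in ULA and 4.62 ± 0.26 FPKM in PS libraries. Plxnb1 averaged 3.66 ± 0.17 FPKM in OPC, 2.12 ± 0.08 FPKM in ULA and 3.55 ± 0.41 FPKM in PS libraries, and like Plxnb2 its log2FC in OPC vs PS missed the threshold (0.04 ± 0.08) and was -0.02 after upper-quartile rescaling.

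The Slits split between substrates: Slit2 was highest in OPC and Slit3 in PS. Slit2, a secreted ligand of Robo1 and Robo2, had 31.3, 30.7 and 32.1 FPKM in OPC, 15.6, 17.3 and 15.5 FPKM in ULA and 8.34, 8.16 and 9.15 FPKM in PS libraries. OPC was highest and PS lowest, with ULA between them and no overlap. Its log2FC was 0.92 ± 0.06 in OPC vs ULA (adjusted p = 1.63e-06, limma), 0.84 ± 0.06 in ULA vs PS (7.6e-07) and 1.76 ± 0.06 in OPC vs PS (7.11e-09). A microRNA gene, Mir3565, lies within it on the opposite strand at a mean of 0.123 FPKM.

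Slit3, which the diaphragm and the heart need in the mouse, had 20.7, 20.7 and 24.5 FPKM in OPC, 23.6, 24.8 and 27.4 FPKM in ULA and 61.4, 59.2 and 59.0 FPKM in PS libraries. OPC and ULA overlapped, and the PS libraries were all more than 2 times the others. Its log2FC was -1.21 ± 0.07 in ULA vs PS (adjusted p = 3.18e-07, limma) and -1.41 ± 0.07 in OPC vs PS (1.42e-07), beside the smaller -0.20 ± 0.07 in OPC vs ULA. The ratio of Slit3 to Slit2 was 0.662 to 0.762 in OPC, 1.43 to 1.77 in ULA and 6.44 to 7.36 in PS libraries. Slit2 exceeded Slit3 in the 3 OPC libraries and in no other. The Slits together summed to 51.4 to 56.6 FPKM in OPC, 39.2 to 42.9 FPKM in ULA and 67.4 to 69.7 FPKM in PS libraries.

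Both tested receptors of the Slits were highest in OPC. Robo1 had 22.1, 21 and 20.7 FPKM in OPC, 15.7, 15.2 and 15.5 FPKM in ULA and 8.41, 8.42 and 8.29 FPKM in PS libraries. It took the order of Slit2 with tight replicates. Its log2FC was 0.44 ± 0.04 in OPC vs ULA (adjusted p = 2.16e-05, limma), 0.81 ± 0.04 in ULA vs PS (9.8e-08) and 1.25 ± 0.04 in OPC vs PS (8.02e-09). Robo2 averaged 4.53 ± 0.05 FPKM in OPC, 3.01 ± 0.10 FPKM in ULA and 3.28 ± 0.11 FPKM in PS libraries (SD, n = 3 each). It was higher in OPC than in ULA (0.46 ± 0.06) and PS (0.37 ± 0.06), and its difference between ULA and PS missed the threshold (-0.09 ± 0.06, adjusted p = 0.205).

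The netrins were higher in OPC than in ULA, and their receptor Unc5b was higher in PS than in either. Ntn1, the best known secreted netrin, had 34.2, 35.0 and 33.8 FPKM in OPC, 21.7, 19.4 and 19.4 FPKM in ULA and 19.2, 18.0 and 18.4 FPKM in PS libraries. OPC stood alone, with ULA and PS side by side. Its log2FC was 0.74 ± 0.05 in OPC vs ULA (adjusted p = 2.73e-06, limma) and 0.85 ± 0.05 in OPC vs PS (3.68e-07), while 0.11 ± 0.05 in ULA vs PS missed the threshold (0.0717). Ntn4, a netrin that binds laminin in basement membranes, averaged 14.7 ± 1.4 FPKM in OPC, 8.40 ± 0.51 FPKM in ULA and 15.5 ± 1.0 FPKM in PS libraries (SD, n = 3 each), low in ULA alone (0.74 ± 0.08 in OPC vs ULA and -0.81 ± 0.08 in ULA vs PS). Each overlaps an unnamed gene of at most 0.359 FPKM on the opposite strand.

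Ntng2 encodes netrin-G2, a lipid-anchored relative that binds a partner at synapses in place of the netrin receptors. It had 6.44, 6.86 and 6.23 FPKM in OPC, 4.06, 3.18 and 4.49 FPKM in ULA and 1.80, 1.80 and 1.57 FPKM in PS libraries. OPC was again highest and PS lowest, with no overlap. Its log2FC was 0.62 ± 0.10 in OPC vs ULA (adjusted p = 0.000761, limma), 0.84 ± 0.10 in ULA vs PS (5.73e-05) and 1.46 ± 0.10 in OPC vs PS (1.35e-06).

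Unc5b, a netrin-1 receptor that can signal for cell death when netrin is absent, was the most abundant guidance gene, with 71.7, 72.0 and 71.1 FPKM in OPC, 56.7, 54.9 and 57.0 FPKM in ULA and 122.2, 117.3 and 117.5 FPKM in PS libraries. The groups did not overlap, and PS was highest and ULA lowest. Its log2FC was 0.35 ± 0.03 in OPC vs ULA (adjusted p = 1.33e-05, limma), -1.07 ± 0.03 in ULA vs PS (2.01e-09) and -0.72 ± 0.03 in OPC vs PS (3.56e-08). The ratio of Unc5b to Ntn1 was 2.06 to 2.11 in OPC, 2.61 to 2.94 in ULA and 6.37 to 6.52 in PS libraries. Its paralog Unc5c had 0.302 to 0.319 FPKM in OPC, 0.118 to 0.246 FPKM in ULA and 1.17 to 1.3 FPKM in PS libraries, and entered the test through the PS libraries alone. Its log2FC was -0.77 ± 0.11 in OPC vs PS and -0.93 ± 0.11 in ULA vs PS, or -1.70 and -2.32 with 0.1 added in place of 1, values whose direction the filter fixed.

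**Figure D4:**
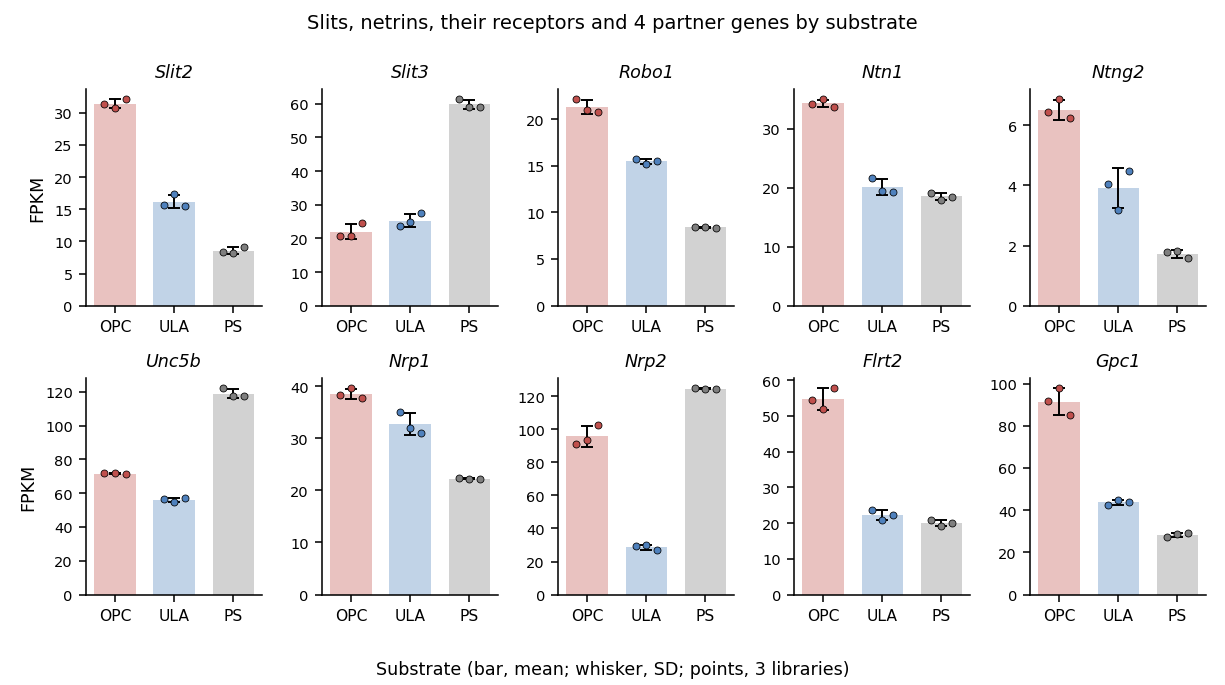
FPKM of Slit2, Slit3, Robo1, Ntn1, Ntng2 and Unc5b and of the partner genes Nrp1, Nrp2, Flrt2 and Gpc1 by substrate, with bars for means, whiskers for SD and points for the 3 libraries. Slit2, Robo1 and Ntng2 are highest in OPC and lowest in PS, Slit3 and Unc5b are highest in PS, and Nrp2 is lowest in ULA.

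Genes that work with these ligands and receptors were counted from a list of 49, of which 48 were in the table and 29 tested. In OPC vs ULA 16 were higher (32.2% of all tested genes) and 4 lower (21.7%), in ULA vs PS 12 higher (38.4%) and 13 lower (30.5%), and in OPC vs PS 13 higher (40.4%) and 11 lower (23.9%). Their median log2FC was 0.23, 0.05 and 0.18 in the same order, beside 0.06, 0.06 and 0.11 over all tested genes. Among the 29, Vav3 and Tiam1 reached 1 FPKM in no PS library. The filter fixed their direction against PS, where both were counted as higher in both comparisons. Co-receptors and effectors of semaphorins (10 tested) had 2 higher and 8 lower in OPC vs PS and 2 higher and 7 lower in ULA vs PS. Partners of Slit and Robo (8 tested) had 5 higher and 2 lower in each of these comparisons, and the difference between the lists was not tested.

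The neuropilins, co-receptors of class 3 semaphorins, changed places. Nrp1 had 38.4, 39.6 and 37.7 FPKM in OPC, 35.1, 32.0 and 31.0 FPKM in ULA and 22.4, 22.2 and 22.1 FPKM in PS libraries, with a log2FC of 0.77 ± 0.05 in OPC vs PS (adjusted p = 4.99e-07, limma). Nrp2 had 91.2, 93.4 and 103 FPKM in OPC, 29.2, 29.9 and 26.8 FPKM in ULA and 125, 125 and 124 FPKM in PS libraries, with a log2FC of 1.71 ± 0.05 in OPC vs ULA (2.89e-08) and -2.09 ± 0.05 in ULA vs PS (1.09e-09). Nrp2 was 2.36 to 2.73 times Nrp1 in OPC and 5.59 to 5.63 times in PS libraries, but 0.831 to 0.932 times in ULA libraries. Its order, PS over OPC over ULA, was also that of Sema3c and Sema3f.

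Of the netrin receptors besides Unc5, Dcc was at or near 0 in all libraries, and Neo1 (neogenin) averaged 27.2 ± 0.5 FPKM in OPC, 20.3 ± 0.2 FPKM in ULA and 23.6 ± 0.6 FPKM in PS libraries (SD, n = 3 each), higher in OPC than in ULA by 0.40 ± 0.04 (adjusted p = 1.36e-05, limma). Flrt2, an adhesion protein that binds Unc5 receptors, had 54.6, 51.9 and 57.8 FPKM in OPC, 23.6, 20.8 and 22.3 FPKM in ULA and 20.9, 19.1 and 20.0 FPKM in PS libraries, with a log2FC of 1.26 ± 0.06 in OPC vs ULA (2.5e-07). It was thus high in OPC alone, as Ntn1 was.

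Gpc1, a heparan sulfate proteoglycan that binds Slits, had 91.7, 97.8 and 85.1 FPKM in OPC, 42.6, 44.8 and 44.0 FPKM in ULA and 27.1, 28.8 and 29.0 FPKM in PS libraries (log2FC 1.04 ± 0.05 in OPC vs ULA, adjusted p = 4.3e-07, limma). Srgap3, a GTPase-activating protein that Robo receptors recruit, averaged 13.8 ± 1.2 FPKM in OPC, 7.06 ± 0.24 FPKM in ULA and 2.5 ± 0.37 FPKM in PS libraries (log2FC 2.09 ± 0.09 in OPC vs PS). Both took the order of Slit2 and Robo1. Enah, an actin regulator of the Ena/VASP family, was at 27.9 to 30.6 FPKM in OPC, 17.1 to 17.8 FPKM in ULA and 55.7 to 58.4 FPKM in PS libraries, with a log2FC of -1.67 ± 0.04 in ULA vs PS. Rnd1, a GTPase that binds plexins, was at 7.85 to 10.6 FPKM in OPC, 9.80 to 12 FPKM in ULA and 37.0 to 41.3 FPKM in PS libraries, a log2FC of -2.05 ± 0.11 in OPC vs PS. Mical1, an enzyme that oxidises actin downstream of plexins, was lower in OPC than in PS, with a log2FC of -1.03 ± 0.06. Farp2, an activator of Rac1 downstream of A plexins in the mouse, was at 5.57 to 6.21 FPKM in OPC, 13.4 to 15.4 FPKM in ULA and 8.09 to 8.94 FPKM in PS libraries, with a log2FC of -1.13 ± 0.07 in OPC vs ULA. Vav3, an exchange factor downstream of Eph receptors, was higher in ULA than in PS by 1.04 ± 0.11, at 1.35 to 1.63 FPKM in ULA against 0.165 to 0.273 FPKM in PS libraries. As above, the filter fixed this direction.

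**Figure D5:**
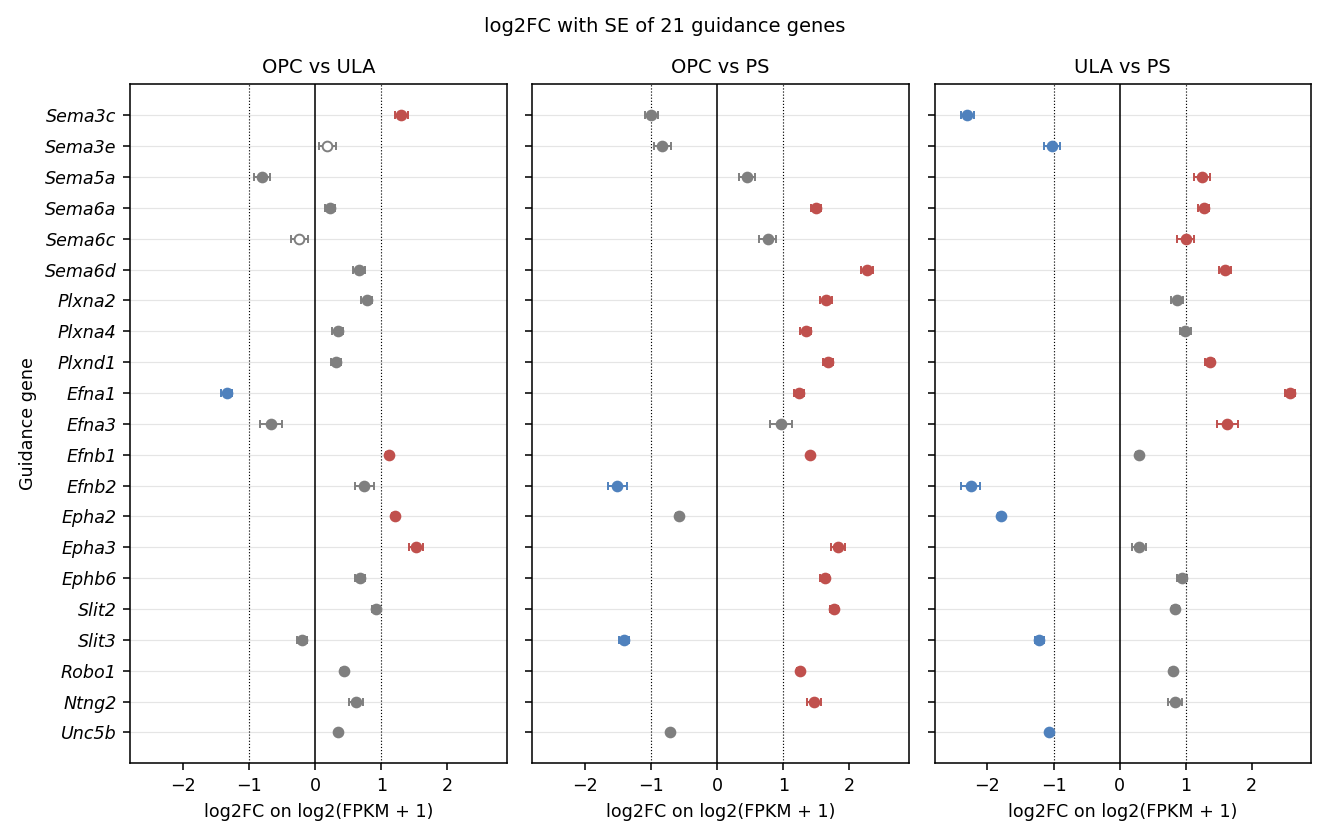
log2FC (x axis, on log2(FPKM + 1)) with SE of the 21 guidance genes that were DEGs in at least 1 of the 3 comparisons. Red and blue mark DEGs higher and lower in the group named first, grey marks genes that were not DEGs there, open circles mark an adjusted p over 0.05 and dotted lines mark -1 and 1. Efna1 lies at -1.34 in OPC vs ULA and at 2.58 in ULA vs PS, and Epha2 at 1.21 and -1.80.

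The 19 guidance genes under 1 FPKM in every library were not tested. They are Sema3a, Sema3d, Sema3g, Sema4d, Sema4f, Sema5b, Sema6b, Plxnc1, Efnb3, Epha1, Epha5, Epha7, Epha10, Ephb1, Slit1, Robo3, Ntn5, Ntng1 and Unc5a. The highest single value among them was 0.908 FPKM, of Sema3d in PS replicate 1, 5 stayed at or under 0.1 FPKM, and 11 were listed at 0 in at least 1 library. Sema3d, Epha10, Epha1 and Sema4f still kept their 3 groups apart, and how often other genes this low did so was not counted. Sema3d, a secreted semaphorin, was at 0.191 to 0.3 FPKM in OPC, 0.493 to 0.711 FPKM in ULA and 0.751 to 0.908 FPKM in PS libraries. Epha10 was at 0.192 to 0.244 FPKM in OPC, 0.0515 to 0.0753 FPKM in ULA and 0.0190 to 0.0224 FPKM in PS libraries. Efnb3, a B-type ephrin, was at 0.0186 to 0.0236 FPKM in OPC, 0.136 to 0.4 FPKM in ULA and 0 to 0.0217 FPKM in PS libraries, highest in ULA and overlapping between OPC and PS. Epha1, at 0.483 to 0.687 FPKM in PS libraries, overlaps Zyx, a gene of 64.4 FPKM on the opposite strand, and without knowing whether the counting used strand its reads cannot be told apart from those of Zyx.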

How the data were processed

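RNA of rat CDCs was sequenced on the Illumina platform, 3 libraries per substrate. The paper's methods name HISAT2 with rn6, featureCounts and DESeq2, and an Omega kit for extraction, while the submitters' notes name HISAT2 2.1 and StringTie 1.3.0 and their protocol Trizol. The sources used here give neither the tool that made the values nor whether strand was used. The authors deposited 1 table of 19919 genes, and its values were taken to be FPKM, made by the authors from reads aligned to rn6. The unit, which no source names, was judged from values that are not whole and that, when low, move in steps that depend on the gene. Depth is known only relative to PS replicate 1, and no 2 libraries were identical.

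Genes that reached 1 FPKM in 3 or more libraries (12513) were transformed to log2(FPKM + 1). All 9 libraries entered 1 limma 3.58.1 fit in R 4.3.3 (trended empirical Bayes, two-sided, Benjamini-Hochberg adjustment over all tested genes), after the fit was tested on simulated data. The design allowed for counts, and its test for FPKM was used. Members were taken by a symbol rule, and per-library values are given for DEGs and for the most abundant member of each family. The members, partner list, marker lists and motifs were chosen with earlier results of these data known. Symbols of these families that the table lacks are not analysed here. One gene of the Schwann and neuronal list is not reported here. Promoter windows come from RefSeq (GRCr8), 48 of 62 genes matching by symbol, and no coordinates were converted between builds. Alternatives were an unadjusted p, a pseudocount of 0.1, no filter, a filter of 5 FPKM, no trend, upper-quartile rescaling, only the 2 groups compared, the replicate number as a block, and leaving out each library.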

Additional observations from a re-analysis of the deposited data

How the results depend on the processing

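Over 2148 values set against the main log2FCs of guidance genes, 2068 kept direction and side of the threshold, 54 lost it, 14 gained it and 12 changed sign. Of these, 129 are the main fit read at its unadjusted p, which can neither lose a call nor change sign. The sign could change only with the pseudocount, the rescaling or the loss of a library of a compared group. The other settings leave the log2FC as it was and move only its p-value. Of 103 called differences, 8 were lost at least once and 0 changed sign. With the pseudocount of 0.1, 2 guidance genes were DEGs lower in OPC vs ULA (Sema5a beside Efna1), 12 were DEGs higher in ULA vs PS and 5 were DEGs lower in OPC vs PS, against 1, 7 and 2 as reported; the smaller pseudocount understates low genes less. At an adjusted p of at most 0.05, 8 were lower in OPC vs ULA with no filter and 2 with the filter of 5 FPKM, against 5, and that filter left 3 DEGs higher in ULA vs PS, since other numbers of genes enter. After upper-quartile rescaling the uncalled log2FC was -0.0470 for Sema4c in OPC vs ULA, and -0.0233 for Plxnb1 and -0.0069 for Plxnb2 in OPC vs PS; the cause was not tested.

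Leaving out 1 library at a time gave 26 to 27 higher and 3 to 5 lower (3 without OPC replicate 1, ULA replicate 2 or ULA replicate 3) in OPC vs ULA, 18 to 19 higher and 15 lower in ULA vs PS, and 22 to 24 higher and 11 to 13 lower in OPC vs PS. The DEGs ranged over 4 higher and 1 lower, 6 to 9 higher and 5 to 7 lower, and 12 to 13 higher and 2 to 3 lower. The log2FCs that changed sign were uncalled in every case: Sema4c in OPC vs ULA (-0.0068 to 0.0636), Epha4 (-0.0064 to 0.1144), Ephb2 (-0.0355 to 0.0643) and Sema4b (-0.0055 to 0.0968) in ULA vs PS, and Plxnb1 (-0.0374 to 0.0874) and Sema4g (-0.0437 to 0.0053) in OPC vs PS.

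The labels number replicates 1 to 3 in each group without saying that a number pairs libraries, and deviations of same-numbered libraries correlated at -0.0394 to 0.0542. With the replicate number as a block, 26 guidance genes were higher and 4 lower in OPC vs ULA, 18 and 15 in ULA vs PS, and 23 and 13 in OPC vs PS, and the counts of DEGs were those reported. The adjusted p then exceeded 0.05 for Sema6a (0.0609) and Plxna3 (0.0511) in OPC vs ULA, Epha3 (0.0531) in ULA vs PS and Sema4a (0.0648) in OPC vs PS, and no other call changed. The DESeq2 alternative was not run, because the values are not counts. Unknown depth and strand limit what can be said of genes near 0 and of overlapping genes, and the fold threshold misses low genes.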
